A study of Rattus norvegicus with 11 samples.

Results

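Interferons are cytokines that cells release on infection and that bind receptor pairs coupled to Janus kinases, which switch on STAT and IRF transcription factors and, through them, many interferon-stimulated genes. The same factors drive the genes that load peptides onto major histocompatibility complex (MHC) class I molecules, by which nearly every nucleated cell shows fragments of its own proteins to CD8 T cells. In liver, hepatocytes, Kupffer cells and sinusoidal endothelium all respond to interferon. The genes examined here were 43 named members of this system, taken by gene symbol from the array's platform annotation, with the probe set of highest mean log2 signal over the 11 arrays standing for each gene. Of the 43, 42 had a probe set with 1 symbol, out of 14217 such genes on the array. Trim21 was not analysed here, and Ddx58, which encodes the RNA sensor RIG-I, was listed as Rig1 and matched by its Entrez identifier. All 42 passed the signal filter that left 10714 genes for testing. They comprised 23 interferon-stimulated members (17 effectors, 3 RNA sensors and 3 CXCR3 chemokines), 6 members of class I antigen processing, 6 receptors and Janus kinases, and 7 transcription factors.

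The high-dosed group comprised 8 Wistar rats given the high dose of mequindox, a quinoxaline di-N-oxide antibacterial used in livestock, and the control group comprised 3 Wistar rats. Liver RNA of each rat was hybridised to 1 Affymetrix array, so each value is 1 animal. The age of the rats was labelled week 9, except for high-dosed rat 8, whose age was labelled week 10. Neither the dose by weight nor how long it was given is stated in the sources used here. Per the series' design text, both groups were taken to arrays after a principal component analysis of liver extracts and clinical chemistry, hence with knowledge of other measurements. The median intensity of an array ran from 149.0 to 186.6 in the high-dosed rats, with rats 11, 8 and 10 lowest, and from 162.1 to 176.4 in the controls. All 15 hepatocyte markers with a probe set passed the signal filter, against 13 of 23 T cell and NK cell markers and 2 of 7 B cell and plasma cell markers. With 3 controls, the number of arrays limits the precision of every difference below.

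Of the 42 members, 2 rose in the high-dosed rats, Cxcl11 and Gbp2, 0 fell and 40 did not pass (limma, adjusted p below 0.05, adjusted over all genes tested). The 2 calls are 4.76% of the members, against 9.84% of all 10714 genes tested, of which 7.23% rose and 2.60% fell. A share of members called below that of all genes is no result about the members. At an unadjusted p below 0.05 there were 11 members, 8 higher and 3 lower (Oas1a, Ifi35 and Ddx58), a share of 26.2%, against 25.3% of all genes tested. High-dosed and control values were fully apart in 3 members, Gbp2, Cxcl11 and Stat2, all higher, while 12.1% of all genes tested had groups apart and 8.69% had the high-dosed rats all higher. The log2 fold change, high-dosed minus control, lay above 0 for 31 of the 42 (73.8%, against 53.9% of all genes tested), with a median of 0.08 against 0.02 over all genes tested. Centring each array on its median moved the median over all genes tested from 0.02 to 0.06. With that shift, Ifit2, Ifnar1 and Irf3 moved from below to above 0. The median log2 fold change was 0.03 for the 23 interferon-stimulated members and 0.12 for the 6 class I members, and no test was made between them.

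**Figure D1:**
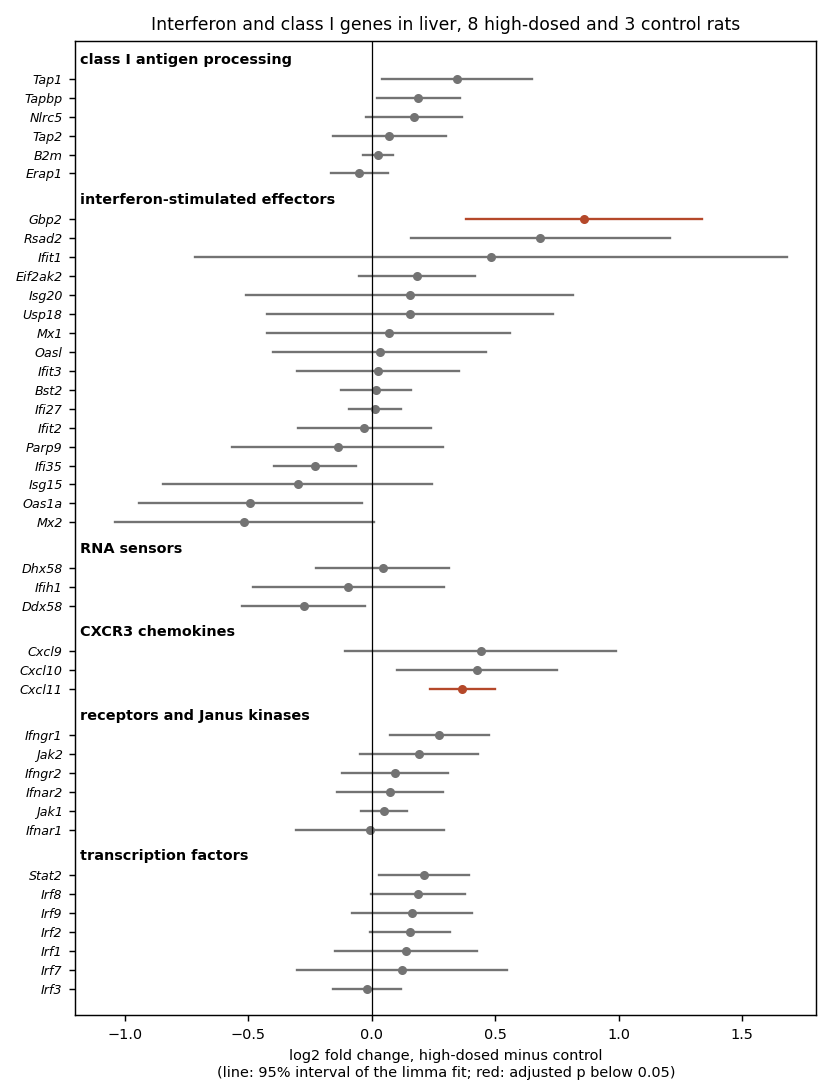
Log2 fold change of each of the 42 members in the liver, high-dosed minus control (x axis), grouped by role, with the 95% interval of the limma fit (8 high-dosed and 3 control rats). The 2 red members, Gbp2 and Cxcl11, passed the adjusted threshold, and the intervals of Ifit1, Isg15, Mx2 and Usp18 are wider than those of every class I member.

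The chemokine Cxcl11, which draws CXCR3-bearing T cells and is induced by interferon gamma, had the smallest adjusted p of the members. Its deposited intensity was 3171 to 3858 in the 8 high-dosed rats (median 3415), against 2692, 2811 and 2472 in control rats 1, 2 and 9. All high-dosed rats lay above all controls. Cxcl11 rose 1.29-fold (log2 fold change 0.37 ± 0.061, SE, limma adjusted p = 0.00387). It passed under all 21 alternative settings, with values from 0.32 to 0.41 and adjusted p up to 0.0212.

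Gbp2, a guanylate-binding GTPase of the interferon gamma response, had intensities of 624 to 1266 in the high-dosed rats (median 718), against 254, 566 and 447 in controls 1, 2 and 9. The groups did not overlap, with control 1 far below the other two and high-dosed rat 4 highest. Gbp2 rose 1.81-fold (log2 fold change 0.86 ± 0.22, SE, limma adjusted p = 0.0294). The call was lost without control 1 (0.57, adjusted p = 0.199), without control 9 (0.93, adjusted p = 0.0596) and with high-dosed rats 8, 10 and 11 left out together (0.83, adjusted p = 0.0796). The call was kept under the other 18 settings. Over all genes tested, calls went from 1054 to 295 without control 1 and to 666 without rats 8, 10 and 11.

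Markers of macrophages, endothelial cells and other cell types are given beside these values. Of 14 tested Kupffer cell and macrophage markers 1 rose (Mrc1) and 0 fell, a share called of 7.14%, against 9.84% of all genes, and 12 had a log2 fold change above 0 (85.7%, against 53.9% of all genes). Their summed intensity ran from 40646 to 53489 in the high-dosed rats and stood at 32396, 40886 and 42344 in controls 1, 2 and 9, so that control 1 was lowest, as it was for Gbp2. Of 12 tested endothelial markers 3 rose (Emcn, Pecam1 and Stab2) and 0 fell, a share called of 25.0%, with sums of 16182 to 17942 in the high-dosed rats and 14139, 16106 and 14101 in the controls. At an unadjusted p below 0.05 there were 6 macrophage markers (42.9%) and 8 endothelial markers (66.7%), against 25.3% of all genes tested. Of the endothelial markers 11 had a log2 fold change above 0 (91.7%, against 53.9% of all genes). Of the macrophage markers with a probe set, Itgam alone lay under the signal filter, and no endothelial marker did. Of 13 tested T cell and NK cell markers 0 were called (0 also at an unadjusted p below 0.05), and their sums of 2494 to 3526 in high-dosed rats covered the 2836 to 3325 of the controls. Among 15 tested hepatocyte markers 1 rose and 1 fell (13.3% called), and 5 had a log2 fold change above 0 (33.3%). No tested marker of B cells and plasma cells, dendritic cells, or neutrophils and monocytes was called. The part of these cell markers in the rises of Cxcl11 and Gbp2 was not tested. In whole liver, more cells of a type and more RNA per cell cannot be told apart.

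The promoters of these 2 called genes are shown because interferon acts on such genes through short DNA elements. The complex of STAT2 and IRF9 binds an element that carries the core GAAA, any 2 bases, GAAA, called the IRF core here, and dimers of the STAT family bind TTCNNNGAA, which reads the same on both strands. Both were searched on both strands in the RefSeq window from 250 bases before to 50 bases after each start (assembly GRCr8). In the printed windows, capitals mark a match, and the sequences run 5′ to 3′ on the gene's strand. The Gbp2 window is chr2:234005477-234005776 (plus strand) and the Cxcl11 window is chr14:15973478-15973777 (plus strand).
Gbp2: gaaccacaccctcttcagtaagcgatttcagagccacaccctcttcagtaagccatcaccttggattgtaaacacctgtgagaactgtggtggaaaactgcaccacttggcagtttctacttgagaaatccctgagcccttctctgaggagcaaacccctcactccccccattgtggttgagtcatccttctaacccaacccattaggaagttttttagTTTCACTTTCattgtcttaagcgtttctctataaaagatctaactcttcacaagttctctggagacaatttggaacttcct
Cxcl11: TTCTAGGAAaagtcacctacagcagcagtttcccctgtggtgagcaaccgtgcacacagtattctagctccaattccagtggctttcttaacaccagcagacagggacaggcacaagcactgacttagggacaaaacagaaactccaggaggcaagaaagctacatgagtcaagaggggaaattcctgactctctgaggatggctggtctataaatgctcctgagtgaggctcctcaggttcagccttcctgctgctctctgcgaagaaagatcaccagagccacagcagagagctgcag
In Gbp2 the capitals are an IRF core that lies on the opposite strand, from 31 to 22 bases before the start. In Cxcl11 they are a TTCNNNGAA match at the far edge of the window, from 250 to 242 bases before the start, and no IRF core stood in it.

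Of the 42 members, 31 had a promoter window, and 15 of those held the IRF core, which 3.92% of all 33469 windows in the RefSeq table held. It was present in 4 of 4 windows of class I members, in 10 of 16 of interferon-stimulated members and in 1 of 11 of receptors, kinases and transcription factors. TTCNNNGAA stood in 8 of the 31 and in 8.87% of all windows. The members were chosen for a known place in the interferon response, so these shares describe the list and test nothing. The stretches of 30 bases around the match follow for the 4 class I members and for 4 interferon-stimulated members with differing values, again on the gene's strand with matches in capitals.
B2m: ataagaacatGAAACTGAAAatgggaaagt
Tap1: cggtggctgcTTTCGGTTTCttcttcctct
Tap2: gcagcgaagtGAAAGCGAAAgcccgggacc
Tapbp: gcctttgaggGAAAATGAAAGTGAAAggaa
Rsad2: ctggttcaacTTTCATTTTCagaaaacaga
Oas1a: cccctctcggGAAATGGAAACTGAAAatct
Bst2: ccctttccagGAAAATGAAACTGAAAggtg
Cxcl10: cgctttgGAAAGTGAAActtaactcactca
They lie at chr3:129549170-129549199 (plus strand) for B2m, and on the minus strand at chr20:4668645-4668674 for Tap1, chr20:4652318-4652347 for Tap2 and chr20:4967884-4967913 for Tapbp. Those of the interferon-stimulated members lie at chr6:48788248-48788277 for Rsad2 (minus), chr12:41330415-41330444 for Oas1a (plus), chr16:18255079-18255108 for Bst2 (minus) and chr14:15988816-15988845 for Cxcl10 (plus). Tapbp, Oas1a and Bst2 each had 2 overlapping matches. In Bst2 a TTCNNNGAA, not marked itself, also overlaps the first of them, and its closing GAA is in capitals as part of that match.

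**Figure D2:**
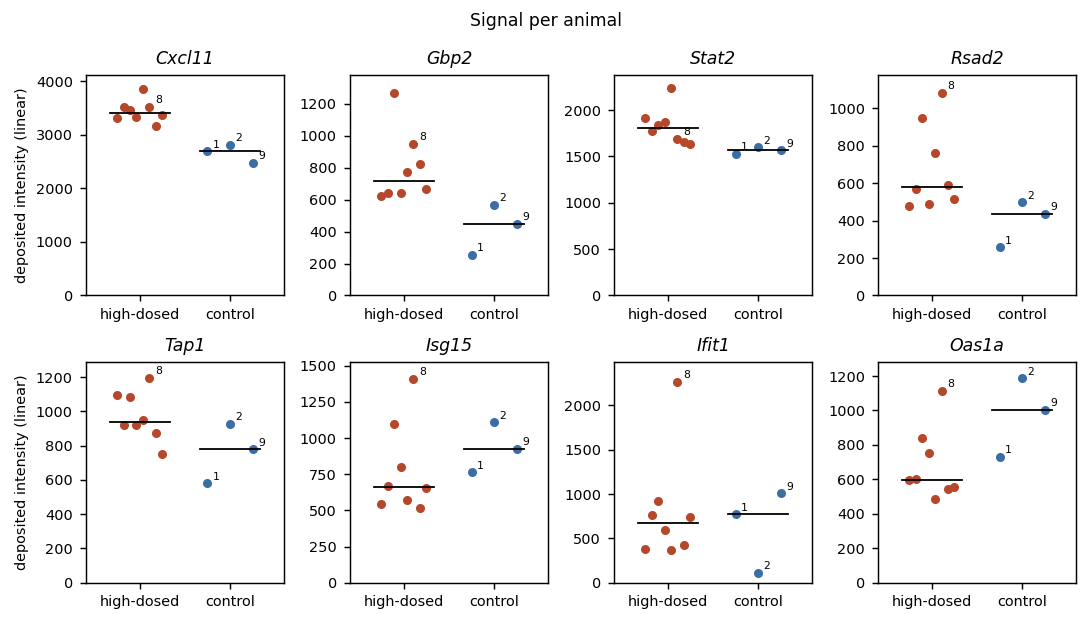
Deposited intensity (y axis, linear) of 8 members in each rat, high-dosed on the left and control on the right of each panel, with the median as a line and the numbers of high-dosed rat 8 and of the controls beside their points. The groups are apart for Cxcl11, Gbp2 and Stat2, and high-dosed rat 8 is the highest high-dosed rat for Rsad2, Tap1, Isg15, Ifit1 and Oas1a.

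In class I antigen processing, 0 of 6 members were called by limma (2 at an unadjusted p below 0.05), 5 had a log2 fold change above 0 and 0 of 6 had groups apart, against 12.1% of all genes tested. Tap1, one of the pair of subunits of the transporter that moves peptides into the endoplasmic reticulum, had 754 to 1197 in high-dosed rats (median 936) and 580, 926 and 778 in controls 1, 2 and 9. All 8 high-dosed rats lay above the control mean, but the groups overlapped (0.35 ± 0.14, limma adjusted p = 0.14). Without control 1, the lowest rat of all, the value was 0.18. Its partner Tap2, next but one to it on chromosome 20, had 476 to 674 in high-dosed rats (median 551) and 473, 540 and 551 in controls. The groups overlapped for Tap2 (0.07 ± 0.11, limma adjusted p = 0.715).

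Tapbp encodes tapasin, which tethers class I molecules to the transporter. It had 1272 to 1634 in high-dosed rats (median 1492), against 1289, 1284 and 1265 in controls, which were close together (0.19 ± 0.078, limma adjusted p = 0.151), and 7 of 8 high-dosed rats lay above the control mean. B2m, the invariant light chain of class I, had 19782 to 21085 in high-dosed rats (median 20602), against 19600, 20445 and 20438 in controls. Its log2 fold change was 0.03 ± 0.028, and the interval from -0.04 to 0.09 makes this probe set one of the most tightly bounded of the members. The other B2m probe set had 0.07 ± 0.070. Nlrc5, the transactivator of class I genes, had 479 to 590 in high-dosed rats (median 527), against 394, 458 and 537 in controls, with all 8 high-dosed rats above the control mean (0.17 ± 0.090, limma adjusted p = 0.267). Erap1, which trims peptides in the endoplasmic reticulum, had -0.05 (interval -0.17 to 0.06).

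Among the other class I genes, 1 of 21 tested was called (4.76%, against 9.84% of all genes), as lower: Calr, the calcium-binding chaperone calreticulin of the peptide-loading complex. It had 6423 to 7157 in high-dosed rats (median 6936), against 8239, 8565 and 8033 in controls. All high-dosed rats lay below all controls, and Calr fell by 0.28 ± 0.046 in log2 units (limma adjusted p = 0.00391). The immunoproteasome subunits Psmb8 (-0.04), Psmb9 (0.02) and Psmb10 (0.02), which interferon gamma induces to cut peptides for class I, did not pass, nor did the proteasome activators Psme1 (0.03) and Psme2 (0.04), with limma adjusted p from 0.692 to 0.888.

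The interferon-stimulated members varied widely between rats of 1 group. Of 23 tested, 2 rose, 0 fell and 21 did not pass, and 8.70% were called, against 9.84% of all genes. The pooled standard deviation within the groups had a median of 0.34 on the log2 scale over these 23 members, 0.12 over the 6 class I members and 0.14 over all genes tested, which span every signal level. Isg15, a ubiquitin-like modifier, had 519 to 1410 in high-dosed rats (median 660), against 764, 1109 and 926 in controls (-0.30 ± 0.25, limma adjusted p = 0.506). Only 2 of 8 high-dosed rats lay above the control mean. Ifit1, which binds foreign RNA ends, had 368 to 2266 in high-dosed rats (median 669), against 772, 111 and 1007 in controls. Control 2 was the lowest of the 11 rats and high-dosed rat 8 the highest, and the interval of the difference ran from -0.72 to 1.68 on the log2 scale.

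Ifit3 and Ifit2, of the same RNA-binding family and beside each other near Ifit1 on chromosome 1, had narrower ranges. Ifit3 had 133 to 236 in high-dosed rats (median 149), against 119, 210 and 157 in controls (0.03 ± 0.15, limma adjusted p = 0.936). Ifit2 had a log2 fold change of -0.03, and its other tested probe set had 0.04. Mx1, a dynamin-like GTPase that blocks viruses, had 302 to 745 in high-dosed rats (median 417), against 334, 543 and 432 in controls (0.07 ± 0.23, limma adjusted p = 0.878). Mx2, with 1 gene between it and Mx1 on chromosome 11, had 329 to 954 in high-dosed rats (median 506), against 756, 893 and 844 in controls. Only 1 of 8 high-dosed rats lay above the control mean for Mx2 (-0.52 ± 0.24, limma adjusted p = 0.205).

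Of the remaining effectors, Ifi35, Rsad2 and Oas1a came nearest to the threshold. Rsad2, which encodes the antiviral enzyme viperin, had 477 to 1083 in high-dosed rats (median 580), against 258, 498 and 438 in controls. All 8 high-dosed rats lay above the control mean but not all above control 2 (0.68 ± 0.24, limma adjusted p = 0.0936). Oas1a, an oligoadenylate synthetase that starts RNA decay, had 487 to 1114 in high-dosed rats (median 599), against 731, 1186 and 1002 in controls. Of the 8 high-dosed rats 1 lay above the control mean (-0.49 ± 0.21, limma adjusted p = 0.161), and it was called without high-dosed rat 8 (-0.59, adjusted p = 0.0472). Ifi35, an interferon-induced partner of Nmi (-0.23 ± 0.077, limma adjusted p = 0.0754) had all 8 below the control mean and was called without high-dosed rat 4 (-0.26, adjusted p = 0.0499).

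Usp18, the protease that removes Isg15 and dampens the type I receptor, had a log2 fold change of 0.15, and Isg20, an exonuclease, also had 0.15. Eif2ak2, the RNA-activated kinase PKR, had 0.18, and Oasl had 0.03. Ifi27 (0.01) and Bst2 (0.02), which encodes the virus-tethering protein tetherin, had intervals within 0.16 of 0 on either side. Parp9, a member of the ADP-ribosyl transferase family, had -0.14. For these 7 genes the limma adjusted p ran from 0.322 to 0.940.

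The RNA sensors Ddx58 (-0.27 ± 0.12), Ifih1, which encodes MDA5 (-0.09 ± 0.18), and Dhx58, their regulator LGP2 (0.04 ± 0.12) did not pass (limma adjusted p between 0.156 and 0.858). All 8 high-dosed rats lay below the control mean for Ddx58. The other chemokines, Cxcl10 and Cxcl9, which share the receptor of Cxcl11, did not pass either. On chromosome 14 Cxcl10 sits next to Cxcl11, and Cxcl9 next to Cxcl10. Cxcl10 had 150 to 323 in high-dosed rats (median 184), against 123, 151 and 116 in controls (0.43 ± 0.15, limma adjusted p = 0.0911). All 8 high-dosed rats lay above the control mean and 1 just below control 2. Cxcl10 was called without high-dosed rat 4 (0.34), after quantile normalization (0.46) and after median centring (0.46), with adjusted p from 0.0473 to 0.0489. Cxcl9 had 619 to 1495 in high-dosed rats, against 512, 833 and 893 in controls (0.44 ± 0.25, limma adjusted p = 0.312), and its other probe set had 0.47.

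Single rats stood out across the interferon-stimulated members. High-dosed rat 8 had the highest signal of the 11 arrays for 11 of the 23, among them Isg15, Ifit1, Mx1, Usp18 and Rsad2, against 8.99% of all genes tested. High-dosed rat 4 was highest for 4 of the 23, against 7.69% of all genes. The median deviation of the 23 from each gene's mean over the arrays was 0.42 in rat 8 and 0.30 in rat 4 on the log2 scale, and between -0.16 and 0.02 in the other 6 high-dosed rats, against -0.14, 0.07 and -0.03 in controls 1, 2 and 9. Irf7, the factor that amplifies type I interferon, was also highest in rat 8. Rat 8 is the 1 animal labelled week 10, so the age label and this animal cannot be told apart. Without rat 8 the median log2 fold change of the 23 was -0.01, and without control 1 it was -0.05. For class I, rat 8 was highest for 3 of 6 members and control 1 lowest for 4 of 6, whereas control 1 was lowest for 18.1% of all genes.

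**Figure D3:**
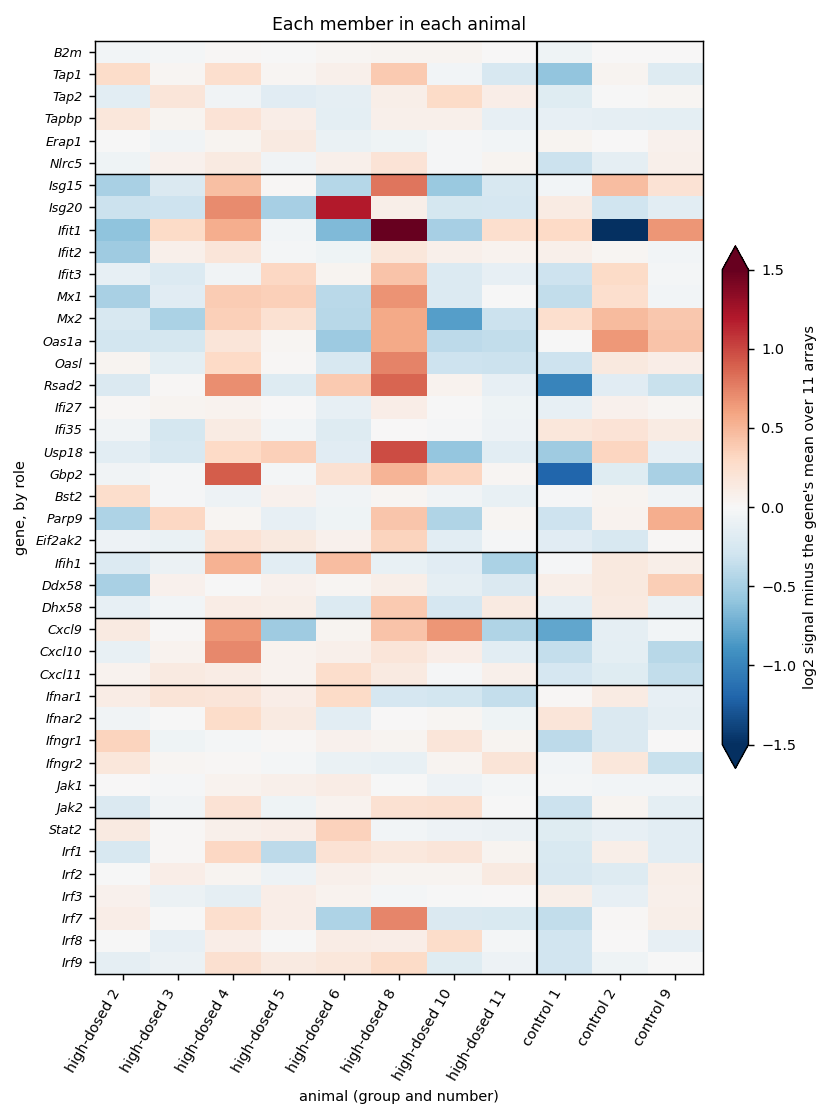
Log2 signal of each member (rows, by role) minus its mean over the 11 arrays, for the 8 high-dosed rats on the left of the black line and the 3 controls on the right. Red is above and blue below the mean, and high-dosed rats 8 and 4 are red across most interferon-stimulated rows, while control 1 is blue for Gbp2, Rsad2, Cxcl9 and Tap1.

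**Figure D4:**
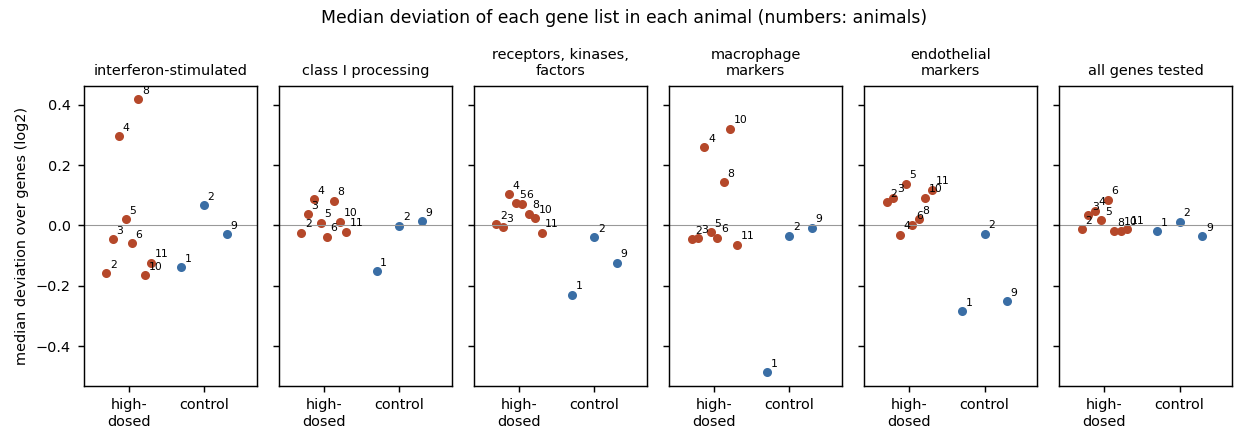
Median over genes of the log2 deviation from each gene's mean, by rat (numbered points), high-dosed left and control right, for 3 groups of members, 2 lists of cell markers and all genes tested. Rats 8 and 4 are highest for the interferon-stimulated members at 0.42 and 0.30, and rats 10, 4 and 8 for the macrophage markers at 0.32, 0.26 and 0.14.

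The macrophage markers were high in part of the same rats. Their median deviation was 0.32, 0.26 and 0.14 in high-dosed rats 10, 4 and 8, and -0.06 to -0.02 in the other 5, against -0.49, -0.03 and -0.01 in controls 1, 2 and 9. For the interferon-stimulated members rat 10 had -0.16, as did high-dosed rat 2, whose macrophage markers stood at -0.05. The part of these markers in the spread of the members was not tested.

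Receptors, kinases and transcription factors held 0 calls among 13 by limma (2 at an unadjusted p below 0.05), against 9.84% of all genes called and 25.3% at that unadjusted p. Of the 13, 11 had a log2 fold change above 0 (84.6%, against 53.9% of all genes). Their median log2 fold change was 0.14. Stat2, a signal transducer of the type I response, had 1635 to 2235 in high-dosed rats (median 1807), against 1529, 1597 and 1564 in controls. The groups did not overlap, but the difference did not pass (0.21 ± 0.084, limma adjusted p = 0.129). Its other probe set gave 0.32 ± 0.076, with an adjusted p over all 18625 probe sets of 0.0262. Stat2 was called with its probe sets averaged (0.26, adjusted p = 0.0487) and after median centring (0.25, adjusted p = 0.0462).

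The IRF factors bind the same type of element as the STAT complex. Irf1, the factor induced by interferon gamma, had 1465 to 2415 in high-dosed rats (median 2080), against 1642, 2059 and 1726 in controls (0.14 ± 0.13, limma adjusted p = 0.568). Irf7 had 1231 to 2893 in high-dosed rats (median 1774), against 1315, 1740 and 1820 in controls (0.12 ± 0.20, limma adjusted p = 0.734). Irf8 (0.19), a factor of myeloid cells, Irf9 (0.16), the DNA-binding part of the STAT complex, and Irf2 (0.15), an antagonist of Irf1, did not pass (limma adjusted p from 0.205 to 0.409), nor did Irf3 (-0.02, adjusted p = 0.889), which is activated downstream of the RNA sensors. Irf2 was called without control 9 (0.26, adjusted p = 0.0464).

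Of the receptor chains, Ifngr1, which binds interferon gamma, had the largest difference (0.27 ± 0.093, limma adjusted p = 0.0800). It had 1789 to 2362 in high-dosed rats, against 1408, 1606 and 1882 in controls, and it was called without control 9 (0.38, adjusted p = 0.0369). Ifngr2 had 0.09, but its other probe set had -0.18. The type I receptor chains Ifnar2 (0.07) and Ifnar1 (-0.01) did not pass, and the other 4 tested probe sets of Ifnar1 ran from -0.36 to 0.27, none of them called. The kinases Jak2 (0.19) and Jak1 (0.05) did not pass. Tested probe sets disagreed in sign for Ifit2, Ifnar1, Ifnar2, Ifngr2 and Jak1, 5 of the 11 members that had several.

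Of 45 other interferon-stimulated genes tested, 4 rose, 1 fell and 40 did not pass, a share called of 11.1%, against 9.84% of all genes. Trim25, a ubiquitin ligase that activates RIG-I, had 1360 to 2221 in high-dosed rats (median 1791), against 1309, 1104 and 1387 in controls. Control 9 lay just inside the high-dosed range, and Trim25 rose by 0.48 ± 0.11 (limma adjusted p = 0.0200). Trim14, an adaptor of antiviral signalling, had 2401 to 2654 in high-dosed rats, against 2130, 2201 and 1951 in controls. The groups were apart, and Trim14 rose by 0.26 ± 0.055 in log2 units (limma adjusted p = 0.0128). The galectin ligand Lgals3bp (0.46 ± 0.13) and Pml, the organiser of nuclear bodies (0.31 ± 0.088), rose too, each with a limma adjusted p of 0.0421. Nmi, which binds STAT proteins, had 1293 to 1692 in high-dosed rats, against 1795, 1964 and 1591 in controls. Its expression fell by 0.33 ± 0.083 in log2 units (limma adjusted p = 0.0274).

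Of 31 other interferon signalling genes tested, 1 rose and 0 fell, a share called of 3.23%, against 9.84% of all genes. It was Il10rb, a chain shared by the receptors of interferon lambda and interleukin 10 (0.31 ± 0.087, limma adjusted p = 0.0422). The probe sets of Ifng and Ifnb1, which encode interferon gamma and beta, lay under the signal filter and were not tested. Without control 1 the calls of Trim25, Trim14, Lgals3bp, Pml, Nmi and Il10rb were all lost, with values from 0.27 to 0.51 for those that had risen and -0.32 for Nmi (adjusted p from 0.0527 to 0.265). Calls were also lost for Trim25, Nmi, Pml and Il10rb without control 2, for Trim14, Lgals3bp, Pml and Il10rb without control 9, and for Lgals3bp, Pml and Il10rb without several single high-dosed rats. With rats 8, 10 and 11 left out together, which left 666 calls over all genes against 1054, Nmi (-0.31) and Lgals3bp (0.37) were not called. Scaling, filter or probe set choice also ended calls: median centring those of Calr (-0.24, adjusted p = 0.0537), Nmi and Lgals3bp, quantile normalization those of Lgals3bp, Pml and Il10rb, no filter those of Pml and Il10rb, and probe sets averaged that of Pml. With any 1 array left out, Calr and Cxcl11 were still called.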

How the data were processed

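The authors deposited 1 table of linear intensity (1 to 34328) holding 31099 probe sets by 11 arrays. MAS5 is named, per the submitters' processing notes; the sources used here state neither its role nor any scaling between arrays, and give no detection calls. Deposited intensities were transformed as log2(intensity + 55.26), the pseudocount being the 20th percentile of all values, so fold changes of dim genes are understated. The 57 control probe sets and those with a mean log2 signal under the 40th percentile (7.40) were left out, leaving 18625. A two-sided linear model with an intensity trend (limma 3.58.1, R 4.3.3), checked on simulated data, contrasted the groups on these probe sets, with Benjamini-Hochberg adjustment over the 10714 genes (brightest probe set of 1 symbol each). Every adjusted p is from limma. Of the list genes, Ddx58 and Slfn13 were matched through RefSeq synonyms. The members and gene lists were chosen with earlier results of these data known. Per-rat values are given for called members, for 10 well-known members and for those with groups apart. Rsad2, Oas1a, Ifit1, Mx2, Cxcl9, Tapbp and Ifngr1 were added after their values were seen, as were the short promoter stretches. Alternatives covered pseudocount, filter, scaling, variance model, probe set choice and each array left out. No protein sequence was used here.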

Additional observations from a re-analysis of the deposited data

Results flagged for a closer look

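In 3 of 49 named genes, 1 high-dosed rat stood apart from the other 7. On the transformed log2 scale, its gap to its neighbour was larger than the critical share of the group's range (Dixon's test for 8 values). The lowest Ifit2 intensity was 663 in high-dosed rat 2, against 940 in the next lowest. The highest Cxcl10 intensity was 323 in high-dosed rat 4, against 205 in the next highest. The highest Nmi intensity was 1692 in high-dosed rat 4, against 1435 in the next highest. Chance alone marks about 5% of groups, and 7.38% of all 10714 genes tested were marked by the same measure.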

How the results depend on the processing

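Cxcl11 was called under all 21 alternatives and Gbp2 under 18, and no class I member was called under any of them. With each array left out in turn, the count of interferon-stimulated members called ranged from 1 to 3 for higher and from 0 to 1 for lower. That of receptors, kinases and transcription factors called as higher ranged from 0 to 2. The median log2 fold change of the class I members ranged from 0.040 (without control 1) to 0.145, and that of the interferon-stimulated members from -0.046 to 0.077. The interferon-stimulated count was 1 with high-dosed rats 8, 10 and 11 left out. Median centring and the mean over all probe sets each gave 1 call, Stat2, among the receptors, kinases and factors. The count over all genes was 1054, against 295 without control 1, 690 without control 2 and 666 without rats 8, 10 and 11. A fit on the gene-level values alone, an alternative chosen after seeing the data, gave 1141. Of the 42 members, 24 never changed sign, and no gene that did was called under any setting. Median centring moved the median log2 fold change over all genes tested to 0.056. The sign changed under median centring for Ifit2 (0.0090), Ifnar1 (0.032) and Irf3 (0.020), and with probe sets averaged for Ifit2 (0.0069) and Ifngr2 (-0.045). Without rats 8, 10 and 11 it changed for Tap2 (-0.014), Mx1 (-0.012), Ifih1 (0.039), Dhx58 (-0.0045) and Ifnar1 (0.17). With single arrays left out, sign-changing log2 fold changes ranged as follows by gene: Isg20 -0.010 to 0.27, Ifit1 -0.35 to 0.99, Ifit2 -0.063 to 0.045, Ifit3 -0.12 to 0.18, Mx1 -0.089 to 0.22, Oasl -0.11 to 0.12, Ifi27 -0.046 to 0.050, Usp18 -0.056 to 0.37, Bst2 -0.019 to 0.042, Parp9 -0.34 to 0.087, Dhx58 -0.0098 to 0.13, Ifnar1 -0.070 to 0.052, Ifnar2 -0.0052 to 0.19, Ifngr2 -0.039 to 0.21, Irf3 -0.087 to 0.018, Irf7 -0.017 to 0.21. The cause of these changes was not tested. The labels pair no rat of 1 group with a rat of the other, so no paired analysis was made. Animal number 2 occurs in both groups, for a control rat and for a high-dosed rat. The number of controls limits every comparison, and with no detection calls the reliability of dim probe sets such as those of Ifit3, Dhx58 and Cxcl10 is unknown.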

Other observations

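Outside the named rule, and singled out after its values were seen, RT1-T24-4, a gene of the rat class I region, had 722 to 2816 in high-dosed rats (median 872), against 513, 737 and 322 in controls 1, 2 and 9. All 8 high-dosed rats lay above the control mean, but the lowest of them overlapped control 2, and the difference did not pass (0.94 ± 0.33 on the log2 scale, limma adjusted p = 0.0931). The 2816 was rat 11 alone, and the next highest, rat 5, had 1018. RT1-N2 (0.27) was also highest in rat 11, at 971 against 180 in rat 8. RT1-CE5, RT1-CE10, RT1-CE12, RT1-CE16, RT1-S3 and RT1-M3-1 lay from -0.12 to -0.04. RT1-A3 had 0.004 and RT1-N3 had 0.01, and no RT1 gene was called. The probe sets of RT1-T24-4, RT1-CE5, RT1-CE10, RT1-CE12 and RT1-CE16 end in _x_at, a suffix for sets that may also bind related transcripts. Which RT1 gene gave their signal was not tested. Rfx5, a DNA-binding factor of MHC promoters, had 0.22 ± 0.068 (limma adjusted p = 0.0538), and its groups did not overlap.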
